A study of Homo sapiens with 8 samples.

Results

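The regions described are wide merged stretches of opened DNA that held a peak of both untreated libraries of HEK293T cells and of neither library of cells given vitamin C. The width is that of the merged region, and a single control peak could be narrower. Peaks of the 2 control lists on chromosomes 1 to 22 and X were merged, and merged regions holding a peak of both lists were kept. Members were chosen by these peak calls: regions of at least 800 bp and under 2000 bp in which no base lay under a peak of either vitamin C list. The rule found 933 regions, among 4191 control regions of that width, 15177 control regions of any width shared by both lists, and 37435 merged regions in either list. Equal-width regions with a peak in both vitamin C lists numbered 2221 and served as the comparison. The other 1037 had a peak in vitamin C replicate 1 alone (558) or in replicate 2 alone (479).

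HEK293T is an established human embryonic kidney line. The vitamin C cells spent 10 min with 0.5 mM vitamin C (ascorbic acid) and the control cells received none; both were then exposed to 5 mM N3-kethoxal over 10 min. Of the 8 samples, 2 labelled and 2 input libraries per condition, the 4 labelled ones gave peak lists for this work, and the 4 inputs were not analysed here. Cell line entries of the labels carry differing numbers although all titles say HEK293T, and nothing in the labels tells whether replicates were separate cultures, so the spread between them may be technical.

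In KAS-seq, N3-kethoxal reacts with guanines that are not base-paired, and the tagged DNA is pulled down and sequenced. Much of the signal comes from transcription bubbles: RNA polymerase II paused near gene starts, elongating through gene bodies, and slowing past the polyadenylation site, where it keeps DNA open downstream of the annotated end. RNA polymerase III opens short tRNA and small RNA genes to a high level. Wide signal in a gene body or past a gene's far end is usually read as elongating or terminating polymerase, and signal at a start as initiation and pausing.

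The vitamin C lists were much shorter than the control lists. They held 9816 and 9896 peaks, against 30351 and 24111 in the controls, at median folds of 6.71 and 6.39, against 6.06 and 5.96. Fold is the authors' own value for each peak, a linear ratio over background, which is used here to rank peaks within a list; folds of different libraries are set side by side as values, and no change is read from them. A region can be absent because the signal was lower or because fewer peaks passed the caller's threshold, and these cannot be told apart from the lists. With every list held to its 9816 peaks of lowest q, 138 of 2337 wide regions were absent (5.9%), and 135 of those 138 overlapped a member. Of 10 genes known to be active in HEK293 cells, 2 and 2 held a peak in the vitamin C lists, against 3 and 3 in the controls. Of 40 genes of other tissues, 1 and 0 did, against 3 and 1. Of all 19974 coding genes, 3787 and 3797 did, against 7695 and 6796 in the controls. The 10 genes do not stand out from these, so nothing about the cell label is read from them.

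A few members covered the start of a protein-coding gene, and promoters of such genes are given here. Part of a promoter can lie outside its member, as for ITPR1 (member chr3:4493240-4494195). The calls do not show which bases were open. Of 15812 RefSeq promoters (GRCh38.p14, the same build as the hg38 of the submitters' processing notes; 250 bases before the start and 50 after it), 36 had their start inside a member. The first 4 below belong to the strongest of these members (another strong member held the shared promoter of PTRH2 and VMP1), and HEXIM1 belongs to the strongest comparison region. Capitals mark matches on either strand to the letters of the TATA box (searched as TATAAA), the CCAAT box (CCAAT, which reads ATTGG on the opposite strand) and the GC box (GGGCGG).
HMMR (chr5:163460382-163460681, plus strand): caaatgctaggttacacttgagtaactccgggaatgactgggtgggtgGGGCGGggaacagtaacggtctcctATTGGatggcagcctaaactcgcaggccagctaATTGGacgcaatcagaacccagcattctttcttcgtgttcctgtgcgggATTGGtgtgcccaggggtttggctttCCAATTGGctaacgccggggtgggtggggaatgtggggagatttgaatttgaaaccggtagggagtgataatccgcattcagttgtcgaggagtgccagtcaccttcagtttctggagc
ITPR1 (chr3:4493098-4493397, plus strand): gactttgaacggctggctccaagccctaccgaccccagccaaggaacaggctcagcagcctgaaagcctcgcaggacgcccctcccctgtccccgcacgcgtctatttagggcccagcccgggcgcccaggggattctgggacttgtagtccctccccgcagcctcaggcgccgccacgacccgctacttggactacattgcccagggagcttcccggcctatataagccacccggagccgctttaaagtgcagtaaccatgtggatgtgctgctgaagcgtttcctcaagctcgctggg
MED1 (chr17:39451214-39451513, minus strand): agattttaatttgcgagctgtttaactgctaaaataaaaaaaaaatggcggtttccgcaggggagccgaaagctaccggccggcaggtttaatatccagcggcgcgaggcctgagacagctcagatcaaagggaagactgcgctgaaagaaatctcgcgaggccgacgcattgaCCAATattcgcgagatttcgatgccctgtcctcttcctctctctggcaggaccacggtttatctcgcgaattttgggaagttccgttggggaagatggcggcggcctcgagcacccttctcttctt
ANKRD23 (chr2:96843972-96844271, minus strand): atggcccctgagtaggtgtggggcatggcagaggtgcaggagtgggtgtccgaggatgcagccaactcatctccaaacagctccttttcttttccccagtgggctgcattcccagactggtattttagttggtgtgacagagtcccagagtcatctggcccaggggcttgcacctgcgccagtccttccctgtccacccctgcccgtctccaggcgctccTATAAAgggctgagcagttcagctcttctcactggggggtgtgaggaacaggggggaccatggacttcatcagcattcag
HEXIM1 (chr17:45148225-45148524, plus strand): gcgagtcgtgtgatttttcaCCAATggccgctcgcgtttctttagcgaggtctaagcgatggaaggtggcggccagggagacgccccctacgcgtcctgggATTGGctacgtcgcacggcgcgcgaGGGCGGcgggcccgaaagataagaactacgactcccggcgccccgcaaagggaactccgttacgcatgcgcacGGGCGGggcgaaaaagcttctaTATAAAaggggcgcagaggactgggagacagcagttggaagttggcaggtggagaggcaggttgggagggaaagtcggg

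The HMMR promoter carried 5 CCAAT matches, 1 pair of them overlapping, and 1 GGGCGG. HMMR encodes the hyaluronan-mediated motility receptor, which acts at the mitotic spindle, and its member (chr5:163460334-163461516) had folds of 9.36 and 9.73 in control replicates 1 and 2. MED1, a Mediator subunit that links activators to RNA polymerase II, had 1 CCAAT match in its promoter and folds of 9.36 and 9.19. ITPR1, an inositol trisphosphate receptor and calcium channel, had no exact match to the 3 searched sequences and folds of 13.4 and 7.97. Its promoter holds tatataag, a near match to TATAAA that was not counted. ANKRD23 had a TATAAA match and folds of 13.2 and 6.78. HEXIM1, which holds P-TEFb, the kinase of elongation, inactive, carried all 3 motifs and had folds of 52.97 and 36.0 after vitamin C, against 76.2 and 54.2 in the controls. None of the 3 searched sequences was thus found in all of these member promoters, and CCAAT was found in those of HMMR and MED1.

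Over all 36 member promoters, CCAAT was found in 61.1% (95% Clopper-Pearson interval 43.5 to 76.9), against 50.4% of 236 comparison promoters and 36.3% of all 15812. GGGCGG was found in 41.7% (25.5 to 59.2), against 61.4% of comparison promoters and 58.5% of all. TATAAA was found in 5.56%, against 11.9% and 9.64%. Matches were counted on both strands wherever they fell in the 300 bases. The members' interval held the comparison share for CCAAT and TATAAA. For GGGCGG it ended below that share but overlapped the comparison interval (54.9 to 67.7). The share of all promoters lay inside the members' interval for TATAAA and GGGCGG and below it for CCAAT. All 3 rest on 36 promoters, and PTRH2 and VMP1, which share a promoter, are counted separately. Median GC content was 59.7% in member promoters, against 57.7% in comparison promoters and 62.7% in all, and the median number of CpG was 21.5, against 20 and 22. Intervals here and below cover counting error only, since regions of 1 genome and 4 libraries are not replicates of a treatment.

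Absence went with the width of control regions, and regions of 800 bp or more also had a higher median control strength than narrower ones, and more bases for a peak to meet; the parts of these were not tested. Absent regions made up 22.3% of the control regions in the members' width range and 42% of those of any width; the rule used this contrast, so nothing is read from either share. By width, absence reached 72.6% under 300 bp, 58.2% from 300 bp, 44.4% from 500 to under 800 bp, and 2.05% (18 of 876) at 2000 bp or more. Within the members' range it was 33.9% from 800 bp, 31.3% from 900 bp, 22.01% from 1000 bp, 15.7% from 1200 bp and 7.58% (53 of 699) from 1500 bp. The width limits thus fall inside a gradual trend and mark no step in it.

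The members were narrow for wide regions, and their peaks were of middling strength. Their median width was 973 bp (quartiles 874 and 1158), against 1184 bp in the comparison regions. The median fold of their best peak was 6.56 in control replicate 1 and 5.95 in replicate 2, against 10.2 and 9.19 in the comparison regions. Control strength, which is that fold's percentile within its own list averaged over the 2 controls, had a median of 49.5 (quartiles 35.6 and 65.6), against 83.7. Strength of at least 90 was reached by 2 members and by 808 comparison regions. In the vitamin C libraries the comparison regions had median folds of 7.48 and 7.15. The box plot of control folds shows the members at the low end, the regions met in 1 vitamin C list between, and the longest upper range in the comparison regions. Control folds came from libraries that the rule used, and are a description.

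**Figure D1:**
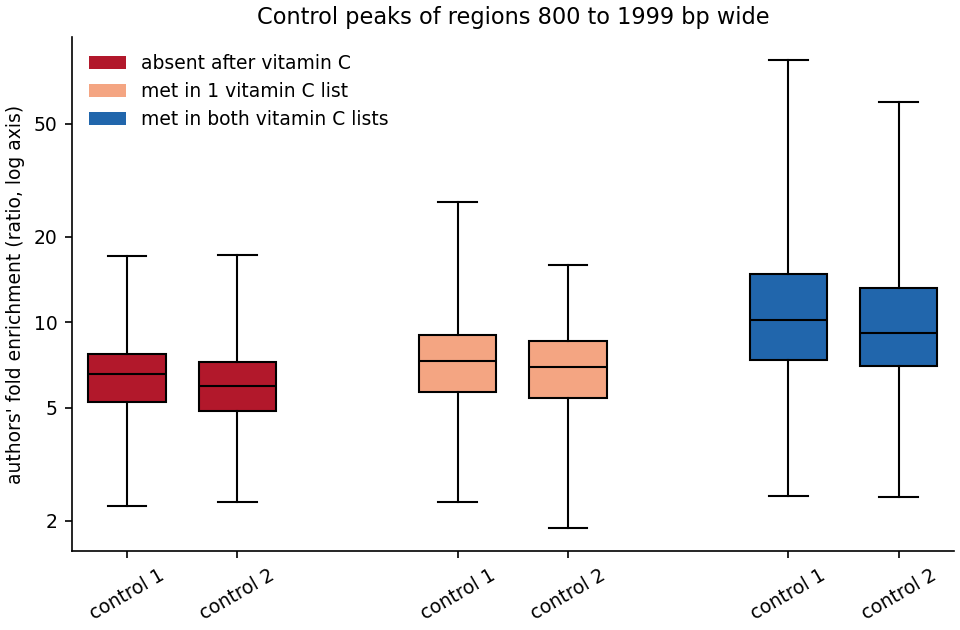
Fold enrichment of the strongest peak per region (authors' ratio, log axis) in each control library, for regions of at least 800 and under 2000 bp that were absent after vitamin C (933), met in 1 vitamin C list (1037) or met in both (2221). Boxes span the quartiles with the median as a line, and whiskers reach the lowest and highest value; the medians of absent regions are 6.56 and 5.95, against 10.2 and 9.19 for regions met in both.

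Few members held a broad peak in both controls. Most members, 773 (82.9%), held 1 peak of each control, as did 1791 comparison regions (80.6%). Only 105 members (11.3%) had a peak of 800 bp or more in both controls, against 1190 comparison regions (53.6%), and 214 members (22.9%) had none that wide in either, against 88 (3.96%). Control replicate 1 covered a median of 81.5% of a member and replicate 2 covered 70.4%, against 95.8% and 90.6% of a comparison region. The control summits lay a median of 147 bp apart in members and 43 bp apart in comparison regions. The 2 controls thus placed the members' summits less closely. A −log10 q of at least 10 in both controls was reached by 94 members (10.1%), against 72.6% of comparison regions, while 62.6% of members reached at least 5 in both.

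The strongest member lay in the body of POLA2, which encodes the accessory subunit of DNA polymerase alpha-primase. It spanned 1017 bp (chr11:65300546-65301562), 88.9% of the way through the gene, with folds of 15.7 and 12.8 in the controls and the nearest vitamin C peak 2576 bp away. The member next in strength lay 2546 bp beyond the far end of HELLS, a chromatin remodeller needed for DNA methylation, with folds of 10.2 and 11.4 (chr10:94616251-94617532). These were the only members with a control strength above 90. The rest of the strongest 12 had values from 87.5 to 89.9.

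Past the far ends of genes lay several others of the strongest. A region 3628 bp beyond CNOT10, a subunit of the CCR4-NOT deadenylase, had folds of 10.3 and 10.3 and no vitamin C peak within 21260 bp. One 1963 bp beyond RRP1, which acts in ribosomal RNA processing, had folds of 8.81 and 11.3, and a vitamin C peak came as near as 786 bp. One 1607 bp beyond SYNJ2BP-COX16, a readthrough locus, had folds of 12.6 and 9.25. A region at the far end of WDR26, a subunit of the CTLH ubiquitin ligase complex, had folds of 10.3 and 9.29, and one over CALML4 and the far end of PIAS1, a SUMO ligase, had 9.09 and 10.8. Near MTFMT, the mitochondrial methionyl-tRNA formyltransferase, a region had folds of 10.6 and 9.69, but no strand was at hand for that gene.

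Of the strongest in gene bodies, the RBM23 member was the widest, at 1876 bp, with folds of 9.90 and 10.3; RBM23 encodes an RNA-binding protein. CNPY2 had a member with folds of 10.5 and 9.73 at 71.8% of its length. TFAP2A, the transcription factor AP-2 alpha, had one with folds of 9.36 and 10.5. Away from any gene by over 5 kb, the strongest members lay 6479 bp from TRIM33 (folds 12.1 and 9.25), 6434 bp from GABPB1 (13.2 and 8.11) and 36220 bp from SPDYE21 (8.67 and 10.2). The last of these had a vitamin C peak 78 bp outside its edge.

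At the upper end of the width range the members lay 2053 bp beyond NIF3L1 (1946 bp wide), in RBM39 (1943 bp), 1955 bp beyond ATXN7 (1935 bp), near EIF2B4 (1892 bp) and at the start of LIN7B (1888 bp). RBM39, a splicing coactivator, had folds of 6.56 and 6.49, in the middle of the members. Vitamin C peaks lay 433 bp from the RBM39 region and 209 bp from the ATXN7 region. The narrowest members, each 800 bp wide, were at RABIF, ANKRD16, YARS2, BAZ1A and LIG3 with RFFL, with folds from 5.08 to 10.6 in replicate 1 and 3.95 to 7.17 in replicate 2. Just outside the limits, 3 regions 1 bp too narrow, in MALSU1, SYNCRIP and DEK, had folds of 5.10, 6.05 and 6.06 in replicate 1 and 7.58, 7.57 and 9.73 in replicate 2. On the upper side, regions of 2004 bp near GPR83, 2009 bp in CCT6A and 2015 bp near AKIRIN1 had 11.8, 8.86 and 7.16 in replicate 1 and 6.21, 6.88 and 7.03 in replicate 2. Regions on both sides of each limit had folds in the range of the members.

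The members' position relative to genes was not used by the rule. Each region was placed by the summit of its strongest control peak: at a gene end (within 1 kb of either annotated end of a protein-coding gene), in a gene body, in a flank (up to 5 kb beyond the gene) or in other sequence. Gene bodies held 513 members, or 55.0% (95% interval 51.7 to 58.2), against 912 comparison regions, or 41.1% (39.0 to 43.1). Gene ends held 187 members, or 20.04% (17.5 to 22.8), against 654 comparison regions, or 29.4% (27.6 to 31.4). Flanks held 157 members, or 16.8%, against 17.1%, and other sequence 76 members, or 8.15% (6.47 to 10.1), against 12.4% (11.1 to 13.9). The differences, members minus comparison regions, were 13.9 points for gene bodies, -9.40 for gene ends, -0.24 for flanks and -4.28 for other sequence.

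**Figure D2:**
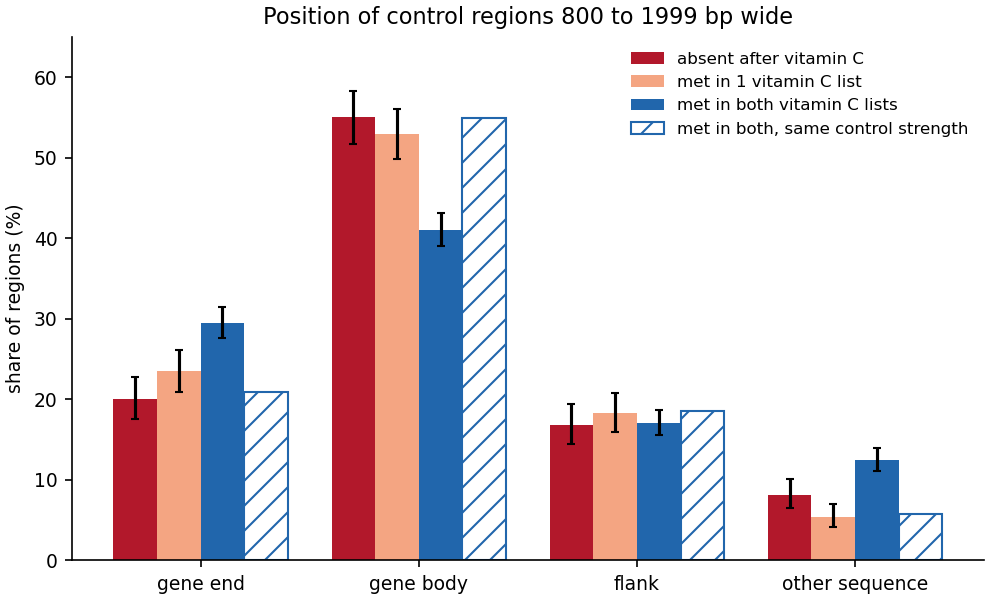
Share of regions of at least 800 and under 2000 bp (%) with the summit of the strongest control peak at a gene end, in a gene body, in a flank or in other sequence, for regions absent after vitamin C, met in 1 vitamin C list and met in both. Error bars are 95% Clopper-Pearson intervals; hatched bars, without intervals, are the 421 regions met in both whose control strength lay between the members' quartiles, and their gene body share of 54.9% is beside the members' 55.0%.

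Control strength moved with these shares. The 421 comparison regions whose strength lay between the members' quartiles had 54.9% in gene bodies and 20.9% at gene ends, beside 55.0% and 20.04% of members. The differences were then 0.11 points for gene bodies and -0.86 for gene ends. Other sequence turned to 2.44 points more in members, at 8.15% against 5.70%. Only the comparison regions were limited to those quartiles, and all 933 members were kept. Against comparison regions from the middle of their strength range, the members thus had nearly the same share in gene bodies and at gene ends.

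The share absent at each level of strength gives the same measurement from the other side. Across the 5 equal bins of strength of all 4191 regions, 44.6%, 34.1%, 22.2%, 10.1% and 0.239% were absent, from the weakest to the strongest. In gene bodies the shares were 45.2%, 34.1%, 20.5%, 11.7% and 0.461%, and at gene ends 38.9%, 37.3%, 21.1%, 8.97% and 0%. Within every bin the intervals of gene bodies and gene ends overlapped. Other sequence had 35.1% absent in the third bin (20 of 57, interval 22.9 to 48.9), above the 20.5% of gene bodies there, and its intervals overlapped those of gene bodies in all bins. The 0 of 318 gene ends in the strongest bin allows a share of up to 1.15% by the exact interval.

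**Figure D3:**
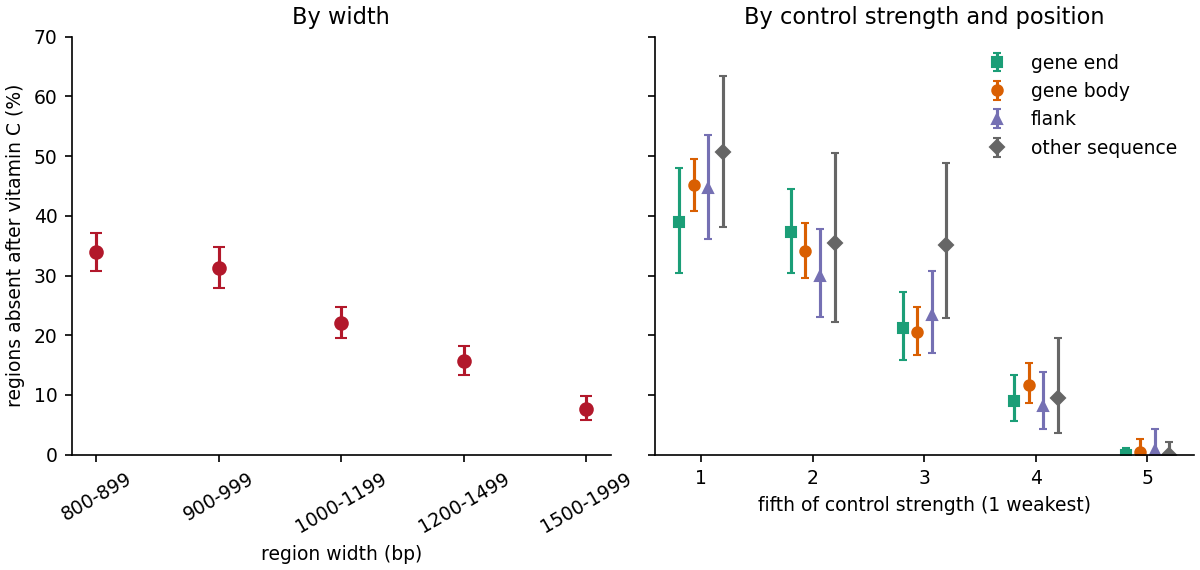
Share of wide control regions with no peak in either vitamin C list (%), by region width in bp (left) and by position and 5 equal bins of control strength (right). Points are shares with 95% Clopper-Pearson intervals; the share is 33.9% in the narrowest and 7.58% in the widest step, and 44.6% of all regions in the weakest bin and 0.239% in the strongest were absent.

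With strand known for 15813 of 19974 coding genes (79.2%), starts could be told from far ends. Of the 187 members at gene ends, 58 (31.0%, interval 24.5 to 38.2) were at a start and 96 (51.3%, 43.9 to 58.7) at a far end, against 286 (43.7%, 39.9 to 47.6) and 242 (37.0%, 33.3 to 40.8) of 654 comparison regions. The intervals of the members and the comparison regions did not overlap for either side. Of the 157 members in flanks, 117 (74.5%) were beyond a far end and 7 (4.46%) before a start, against 252 (66.5%) and 29 (7.65%) of 379. At gene ends and in flanks alike, far ends outnumbered starts among the members. The strand split was chosen after the data had been seen and was not repeated at matched strength.

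Named members at starts were few. ATM, the kinase that signals DNA double-strand breaks, had one 567 bp into the gene (chr11:108222926-108223818) with folds of 6.65 and 5.28 and no vitamin C peak within 100312 bp. FDPS, which makes farnesyl diphosphate for cholesterol synthesis, had one with folds of 6.26 and 4.76. IP6K2, an inositol hexakisphosphate kinase, had one at its start with folds of 12.1 and 7.15. RABIF, a guanine nucleotide exchange factor for Rab proteins, had one 485 bp outside its start with folds of 10.6 and 7.17. In each of these, replicate 1 had the higher fold, but the start member of HMMR had 9.36 and 9.73.

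Members in gene bodies sat in genes of every length. The gene around a member had a median length of 37759 bp, against 30569.5 bp for comparison regions, a ratio of 1.24. Against the 421 comparison regions of matched control strength the ratio was 1.065. Genes under 20 kb held 24.4% of these members and 32.2% of comparison regions, while genes over 100 kb held 15.0% and 14.8%. Where strand was known, the members lay a median of 16391.5 bp from the gene start (404 regions), against 13184 bp (745 regions), and at 56.5% of the gene's length, against 55.9%. With each gene cut into 5 equal stretches, the one nearest its far end held 26.5% of members and 24.8% of comparison regions. Along the gene the members were thus placed much as the comparison regions were.

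Altogether 615 coding genes overlapped a member, of the 2151 that overlapped any wide region (28.6%), and 1271 (59.1%) overlapped a comparison region. No coding gene overlapped 290 members (31.1%), and 59 members overlapped more than 1 coding gene. A comparison region lay in 165 of the 615 genes (26.8%). Of the 609 that held a peak in both controls, 313 (51.4%) held one somewhere in both vitamin C libraries and 189 (31.0%) in neither, beside 45.9% and 29.4% of all 6045 coding genes with a peak in both controls. Of 232 with a control peak at the start in both libraries, 89 (38.4%) had a start peak in both vitamin C libraries and 104 (44.8%) in neither, beside 43.5% and 32.3% of all 2495 such genes. Genes with a comparison region had 70.2% and 16.9% (610 genes). A gene enters these sets through its regions' own calls, so nothing is read from the differences.

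In 11 genes 3 or more members were found. SPEN, a large transcriptional corepressor, held 6 members among 30 control regions, of which 11 were absent, 9 were met in 1 vitamin C list and 10 in both. Its members had folds of 4.30 to 7.43 in replicate 1 and 6.17 to 9.73 in replicate 2. They lay at 18.5%, 21.9%, 39.3%, 44.7%, 95.7% and 96.9% of the gene, between regions that vitamin C libraries did meet: 1 comparison region 37.5 to 38.8 kb from the start had control folds of 8.60 and 17.1. Absent and met regions therefore alternated along SPEN.

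IP6K2 held 4 members among 10 control regions, none of which was met in both vitamin C lists. Its other members lay 4048, 5340 and 24154 bp into the gene, with folds of 7.04 and 7.14, 4.69 and 6.17, and 6.08 and 7.15. ANAPC7, a subunit of the anaphase-promoting complex, had 7 control regions, and all 7 were absent. Its 3 members (chr12:110378659-110379511, chr12:110385197-110386095 and chr12:110397037-110397907) had folds of 7.15 to 8.81 in replicate 1 and 4.84 to 5.16 in replicate 2. The nearest vitamin C peak to any of the 3 was 24387 bp away, so all of ANAPC7 lay in a stretch without one.

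DEK, a chromatin-binding protein, had 6 absent regions among 12, with 3 of them members, and 2 comparison regions with control folds of 7.53 and 11.0, and 8.21 and 6.63. CHAF1A, the large subunit of chromatin assembly factor 1, had 3 members with folds of 6.26 to 8.26 and 5.41 to 6.66 and 4 regions met in both lists. RBM5, a splicing factor, had 3 members and 5 absent regions of 7. One of its members had folds of 10.5 and 5.65. KIF7, a kinesin of the hedgehog pathway, had 7 absent regions of 15 and 6 met in both lists; 1 of its 3 members also lay in TICRR. CLTC, the clathrin heavy chain, had 3 members, and the one at 94.2% of the gene had folds of 9.35 and 8.11.

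SLIT2, a secreted axon guidance ligand, had the highest number of control regions of these genes, 65 in 368657 bp, of which 25 were absent, 21 were met in 1 list and 19 in both. Its 4 members had folds of 5.48 to 7.71 and 3.83 to 9.19. SOD2, the mitochondrial manganese superoxide dismutase, held 3 members with folds of 4.80 to 7.37 and 4.13 to 5.93, but 2 of them also lay in WTAP, a subunit of the RNA methylation complex, and cannot be assigned. The map of 6 of these genes shows tall absent bars standing among met ones in SPEN, DEK and CHAF1A, and no region met in both in IP6K2 and ANAPC7.

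**Figure D4:**
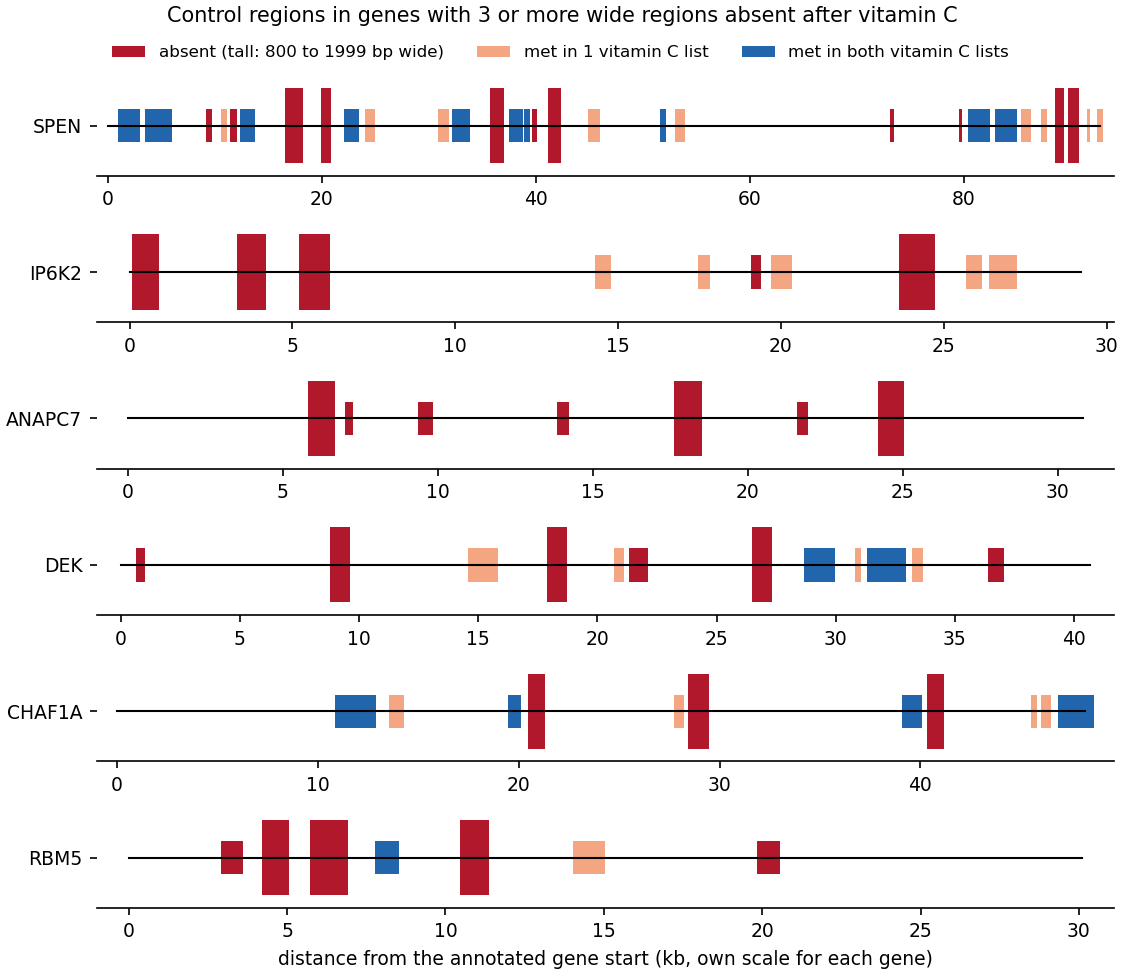
Control regions along 6 genes with 3 or more members, drawn to scale from the annotated gene start (kb, own axis per gene), coloured by whether they were absent after vitamin C, met in 1 vitamin C list or met in both. Tall bars are members; all 7 regions of ANAPC7 are absent, while SPEN has 11 absent and 10 met in both.

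Gene groups are given by how many of their genes with any wide region held a member, beside 28.6% of all 2151 genes. Among DNA replication genes 8 of 17 did (47.1%), and 11 held a comparison region. With 17 genes, no excess over 28.6% is read from this share, and none was tested. MCM3, a subunit of the replicative helicase, had a member with folds of 6.45 and 9.73, and MCM2, another subunit, one with 6.07 and 8.11. GINS1, part of the helicase's GINS complex, had one with 11.6 and 5.03, and RFC3, a clamp loader subunit, one with 10.2 and 5.20. GMNN, MCM4, POLD1 and POLE made up the rest. The mitotic genes had 3 of 7: HMMR, MKI67 (folds 3.18 and 5.93) and CCNA2, the cyclin A2 gene, with a member of 1856 bp and folds of 7.70 and 9.73.

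Ribosomal protein genes held a member in 6 of 47 (12.8%) and a comparison region in 41 (87.2%). RPL34 and RPS3A had members at their far ends with 7.43 and 9.19, and 9.91 and 7.03. Peaks of vitamin C replicates 1 and 2 lay 358 and 296 bp from the RPS3A region. Replication-dependent histone genes had no member in 17 genes and a comparison region in 14 (82.4%). Of all 2151 coding genes with a wide region, 28.6% held a member and 59.1% a comparison region. Of the 6 ribosomal protein genes with a member, 4 also held a comparison region. Control strength was not matched for these groups, and no difference from all genes was tested.

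Among splicing factors 10 of 37 genes held a member (27.0%). The strongest in the controls were HNRNPD, RBM39, SRSF4 (with MECR in the same region) and TRA2B. Translation factors had 8 of 26 (30.8%), with 4 subunits of the initiation factor eIF3 among them; EIF3D had folds of 7.15 and 6.69. RNA polymerase II and pausing factors had 6 of 18 (33.3%): beside MED1 these were CDK12, MED13, PAF1 (with SAMD4B in the same region), POLR2D and POLR2F. POLR2F, a shared polymerase subunit, had a member of 1498 bp with folds of 9.54 and 6.17. Zinc finger genes had 16 of 51 (31.4%). These 4 groups stood near the 28.6% of all genes.

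Groups that bear on ascorbate chemistry had few wide regions. Vitamin C serves as a cofactor that keeps the iron of 2-oxoglutarate dioxygenases reduced, and of 4 such enzymes with a wide region 1 held a member, KDM4A, a histone lysine demethylase, with folds of 8.80 and 4.84; all 4 held a comparison region. Of 4 ascorbate and iron handling genes, 3 held a member: PCBP2, an RNA-binding protein and iron chaperone (7.63 and 8.75), IREB2, iron regulatory protein 2 (5.95 and 7.91), and NCOA4, the ferritinophagy receptor (6.05 and 5.95). Among antioxidant genes these were SOD2 and TXN, the thioredoxin gene (7.15 and 5.95), of 5. Numbers this small give no share worth comparing.

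Of the chaperones, CCT3, HSPA9, HSP90B1 and HSP90AA1 held a member (4 of 12), the first with folds of 7.03 and 7.12. In glycolysis ENO1, enolase 1, had one with 11.0 and 6.49 and LDHB, a lactate dehydrogenase subunit, one with 8.81 and 7.03 (2 of 5). PSAT1, an enzyme of serine synthesis, held the only member among 8 stress response genes, with folds of 6.61 and 12.98, and each of the 8 held a comparison region. Chromatin regulators had 3 of 20 (15.0%), namely SMARCA4, SMARCB1 and DOT1L (with PLEKHJ1 in the same region). The p53 and DNA damage list had ATM alone of 10, the proteasome list PSMA7 alone of 11, the TCA cycle and oxidative phosphorylation list CS and ATP5F1A of 11, the immediate early list IER5 of 4 and the hypoxia list MXI1 of 2.

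Genes for tRNA and snRNA were found in comparison regions and in no member. No member overlapped a tRNA gene (0 of 933, which allows a share of up to 0.322% by 3 counts and 0.395% by the exact interval), nor did more than 1 of the 1037 regions met in 1 list, against 170 comparison regions (7.65%, 6.58 to 8.84). No member overlapped an snRNA gene, against 18 comparison regions (0.810%), among them RN7SK, which encodes the 7SK RNA bound by HEXIM1, and RNU6-1, a U6 gene. The comparison regions over tRNA genes had a median control strength of 99.2 and made up 118 of the 276 in other sequence (42.8%). Without regions over tRNA genes, the share in other sequence was 8.15% in members and 7.70% in comparison regions. These overlaps were counted after the data had been seen.

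Other transcripts were shared more evenly. Long noncoding RNA genes overlapped 96 members (10.3%, 8.41 to 12.4), against 275 comparison regions (12.4%, 11.0 to 13.8), and the members included DANCR, FIRRE, JPX, HOXA-AS3 and HOXB-AS1. Small nucleolar RNA genes overlapped 5 members (0.536%), against 18 comparison regions (0.810%); SNORA71D, SNORA74D, SNORD73A and SNORD84 were 4 of those 5. Genes for the microRNAs MIR659 and MIR6758 lay in members, against 8 comparison regions with a microRNA gene.

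Distances to the nearest vitamin C peak were measured for members only, so they are not read as a trait of members. The nearest peak of either vitamin C list was a median of 2753 bp from the edge of a member (quartiles 969 and 16187), and 104 members (11.2%) had one within 500 bp, 561 (60.1%) within 5000 bp and 857 (91.8%) within 100000 bp. The nearest of all lay 14 bp from a member near MAP3K7 and 22 bp from one at the far end of IARS1. Toward the other extreme were a region beyond RNF138 (3109539 bp; folds 8.81 and 5.95), one in ZFAT, one in ROBO2, a SLIT receptor (1552738 bp; 4.38 and 4.84), one beyond DICER1, the microRNA-processing nuclease (1493499 bp; 7.57 and 5.41), and the YARS2 member (1312450 bp). The cumulative curve rises most steeply between 500 and 5000 bp.

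**Figure D5:**
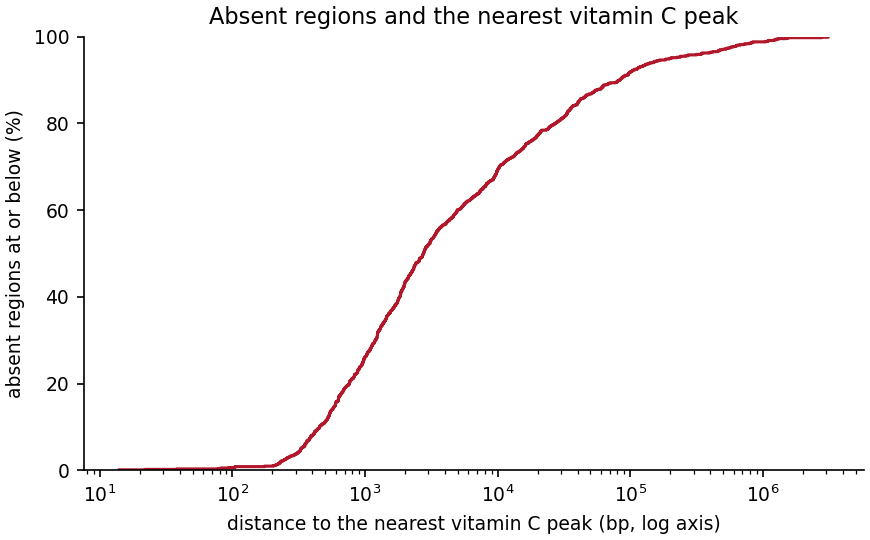
Cumulative share of the 933 absent regions (%) by distance in bp (log axis) from the region's edge to the nearest peak of either vitamin C library. The curve passes 11.2% at 500 bp, 60.1% at 5000 bp and 91.8% at 100000 bp.

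The control regions next to members were absent about as often as those next to any control region. The nearest other control region, of any width, was itself absent for 406 members (43.5%, 40.3 to 46.8), against 742 comparison regions (33.4%, 31.5 to 35.4) and 40.2% of all 15177 control regions. It was met in both vitamin C lists for 285 members (30.6%), against 44.0% of comparison regions and 35.1% of all. For both shares the intervals of members and comparison regions did not overlap. The members' interval did overlap that of all control regions for the absent share (39.4 to 41.0 in all). For the share met in both it did not (27.6 to 33.6 in members, 34.3 to 35.8 in all). Comparison regions were chosen for being met and were stronger in the controls. Neighbouring regions share genes and local background, so they are not independent.

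By chromosome, members made up from 16.6% of the wide control regions on chromosome 11 (35 of 211) to 34.6% on chromosome 18 (9 of 26, interval 17.2 to 55.7). Chromosome 3 had 67 of 201 (33.3%, 26.9 to 40.3), above the 22.3% over all chromosomes by its interval, and IP6K2 and RBM5 lie there. Chromosome 1 had the most members, 108 of 546 (19.8%). The median control strength of the wide regions was 66.5 on chromosome 3 and 69.3 on chromosome 1, against 82.1 on chromosome 6, where members were 18.5%. Among 23 chromosomes some intervals miss the common share by counting error, and no test was made.

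The strongest comparison regions show the scale that the members did not reach. LONP1, the mitochondrial Lon protease, had folds of 36.2 and 48.1 after vitamin C, against 60.5 and 56.2 in the controls. HSP90AB1, a cytosolic HSP90 chaperone, had 29.0 and 26.4 after vitamin C, against 83.7 and 49.9 in the controls. Regions at AGBL5, ANG and NCOA7 had 43.2 and 32.7, 17.4 and 25.3, and 38.5 and 48.3 after vitamin C, against 58.4 and 56.2, 57.3 and 57.3, and 57.0 and 54.2 in the controls, and each covered a tRNA gene. The highest control fold of any member was 17.3.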

How the data were processed

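KAS-seq peak lists of 4 labelled HEK293T libraries, 2 after vitamin C and 2 controls, were used. The submitters' processing notes name MACS2 2.2.7.1, Bowtie2 2.4.5, deepTools, cutadapt, Trim Galore and bcl2fastq 2.19, with hg38. Neither order nor settings are given in the labels. Each deposited list, 1 per library, gives for each peak its position, summit, fold (a linear ratio over background) and −log10 p and −log10 q, all computed by the authors; no unused column of per-sample values was read. The lists hold no read counts, so depth is unknown here.

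Peaks on chromosomes 1 to 22 and X were merged where they overlapped or touched, and 1 bp of overlap counted as met. Gene positions came from a RefSeq table of GRCh38.p14, with strand from its promoter sequences. The members and the gene lists were chosen with earlier results of these data known. The rule uses the contrast between conditions, so shares carry 95% Clopper-Pearson intervals and no test. Named regions are the strongest 12 members, the 3 strongest per position class, the 5 widest, 5 narrowest and 5 farthest from a vitamin C peak, 3 regions outside each width limit, genes with 3 or more members, up to 4 members per gene list, and the 6 strongest comparison regions with a coding gene; a few of these are not reported here. Promoter members and the members nearest to a vitamin C peak were named after their values were seen. Alternatives were a stricter q, lists of equal length, other overlaps, widths and windows, summit against midpoint, matched strength and each library left out. For matched strength, only the comparison regions were limited to the members' quartiles. Leaving out regions over tRNA genes was added after seeing the data. The code for the rule was checked on simulated lists with known members, which says nothing about the members found here. Tools were pandas 2.3.3, numpy 2.4.6, scipy 1.17.1 and matplotlib 3.10.9 under Python 3.11.15.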

Additional observations from a re-analysis of the deposited data

How the results depend on the processing

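The number of members depended on most choices of the rule. Against 933 members and 22.3% of wide regions absent, lists of equal length gave 138 and 5.9%, a required cover of 50% of the region gave 2574 and 61.4%, a lower width limit of 600 bp gave 2050 and 29.9%, one of 1000 bp gave 420 and 16.0%, and a region covered by 50% in each control gave 498 and 15.6%. The share was 19.8% with vitamin C peaks widened by 500 bp and 24.3% at −log10 q of at least 5. Leaving out each library in turn gave 490 to 1491 members and 16.0% to 35.6%: 1491 without vitamin C replicate 1, 1412 without vitamin C replicate 2, 490 without control replicate 1 and 670 without control replicate 2, where 1 list alone sets the regions and 3055 and 3449 are in the width range. The gene end difference (members minus comparison regions) of -9.40 points was -1.94 with 50% cover, -0.86 at matched control strength and -12.4 to -6.31 with a library left out. The gene body difference of 13.9 points was 0.11 at matched strength and 10.6 to 19.0 with a library left out. The flank difference of -0.24 was 2.79 at −log10 q of at least 5, 3.23 with widths from 1000 bp and -1.65 to 0.44 with a library left out. The difference in other sequence of -4.28 was -13.3 with 50% cover and -6.64 at −log10 q of at least 5; it turned to 2.44 at matched strength and to 0.44 without regions over tRNA genes, and was -4.96 to -3.36 with a library left out. The difference in median control strength of -34.1 was -22.9 with lists of equal length, -29.5 with 50% cover, -29.8 with widths from 1000 bp and -36.4 to -24.7 with a library left out. The ratio of gene lengths of 1.24 became 0.945 with lists of equal length, over 138 members. It was 1.065 at matched strength and 1.08 to 1.27 with a library left out. The cause of these changes was not tested. Gene end, gene body and flank differences kept within their intervals in 14 of 16 alternatives each. No paired analysis was possible because members are counted by a rule over all 4 lists and carry no test. Unknown depth limits what absence from a list can show.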
